A study of Mus musculus with 2 samples.

Results

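8 complement genes were followed across the cell classes of allergen-challenged mouse lung: C1ra, C1s1, C4b, C2, C3, Cfb, Hc and Serping1. They were taken by symbol from the gene list of the deposited matrices, where all 8 of them stand among 32285 genes, and their raw unique molecular identifier (UMI) counts were read in every cell class of 2 libraries. The first library is from wild-type (WT) C57B6/J mice and the other from Plaur-/- mice, labelled with the same strain, in which the gene for the urokinase receptor uPAR is inactivated. The series names 8 mice of each genotype, all sensitised with LPS and ovalbumin on days 0 and 7 and exposed to an ovalbumin aerosol on day 14, so no value below is from unchallenged lung. Digested lung was sorted for CD45.2-negative cells, a gate that removes most blood-derived cells, and 1 droplet 3' single-cell library was made per genotype, although a label also calls the material a lysate of total lung cells. How many mice each library holds is not given in the labels. As each genotype has 1 library and hence no replicate, the libraries were compared without a test or p-value, and every interval below is a 95% interval of counting error only.

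The WT library gave 10225 cells and the other 8934 after filtering, with a median of 4837 and 5537.5 UMIs per cell, and 27 of the kept barcodes occur in both. Plaur mRNA was counted in both libraries, at 1.61 CPM (UMIs of a gene per 1e6 UMIs of the class) in the WT library and 15.7 CPM in the other in alveolar type 2 (AT2)-like cells, and at 474 and 240 CPM in aerocyte-like capillary cells. A 3' count does not show whether the transcript is intact, so the label is not tested by it and the library is called KO-labelled throughout. Classes were built by clustering both libraries together without letting any complement gene shape the clusters, and were named from fixed markers. A cluster whose leading genes held as many markers of another class keeps its number. Values in CPM are sums over the cells of a class, and, as each transcript is counted at its 3' end, they are not scaled by length.

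Complement is a cascade of blood proteins that marks surfaces for removal and recruits leukocytes. The C1 complex carries the proteases C1r and C1s, which cleave C4 and C2 into the classical C3 convertase. Factor B, encoded by Cfb, gives the alternative convertase on C3 fragments that are already bound. Both convertases cleave C3, and the C5 that follows is the source of the attractant C5a and of the start of the membrane attack complex. Serping1 encodes C1 inhibitor, which blocks C1r and C1s as well as kallikrein of the contact system. The liver makes most of the circulating proteins, and many tissues make some of them locally.

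All members except Hc were highest in mesothelial-like or fibroblast cells, and Hc was highest in AT2-like cells. 7 named classes had 100 cells or more from each genotype. Among these the mesothelial-like class, whose leading genes include the mesothelial genes Msln and Upk3b, was highest for 5 members (C3, C4b, C2, C1ra and Cfb). The adventitial fibroblast-like class, led by Dcn and Col1a2, was highest for C1s1 and Serping1. Of 7218 genes with at least 50 CPM in a compared class, 23.8% had their highest class among these and 11.8% in the mesothelial-like class. The 8 genes together took 1.82% of all UMIs of mesothelial-like cells in the WT library and 2.18% in the other. In adventitial fibroblast-like cells they took 0.922% and 1.02%, and in AT2-like cells 0.206% and 0.241%. General capillary-like cells, with 0.00729% and 0.00569%, had the lowest share of the 7 classes in both libraries. Albumin mRNA, a mark of liver RNA, was at 0 UMIs in the mesothelial-like and adventitial fibroblast-like cells of both libraries.

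**Figure D1:**
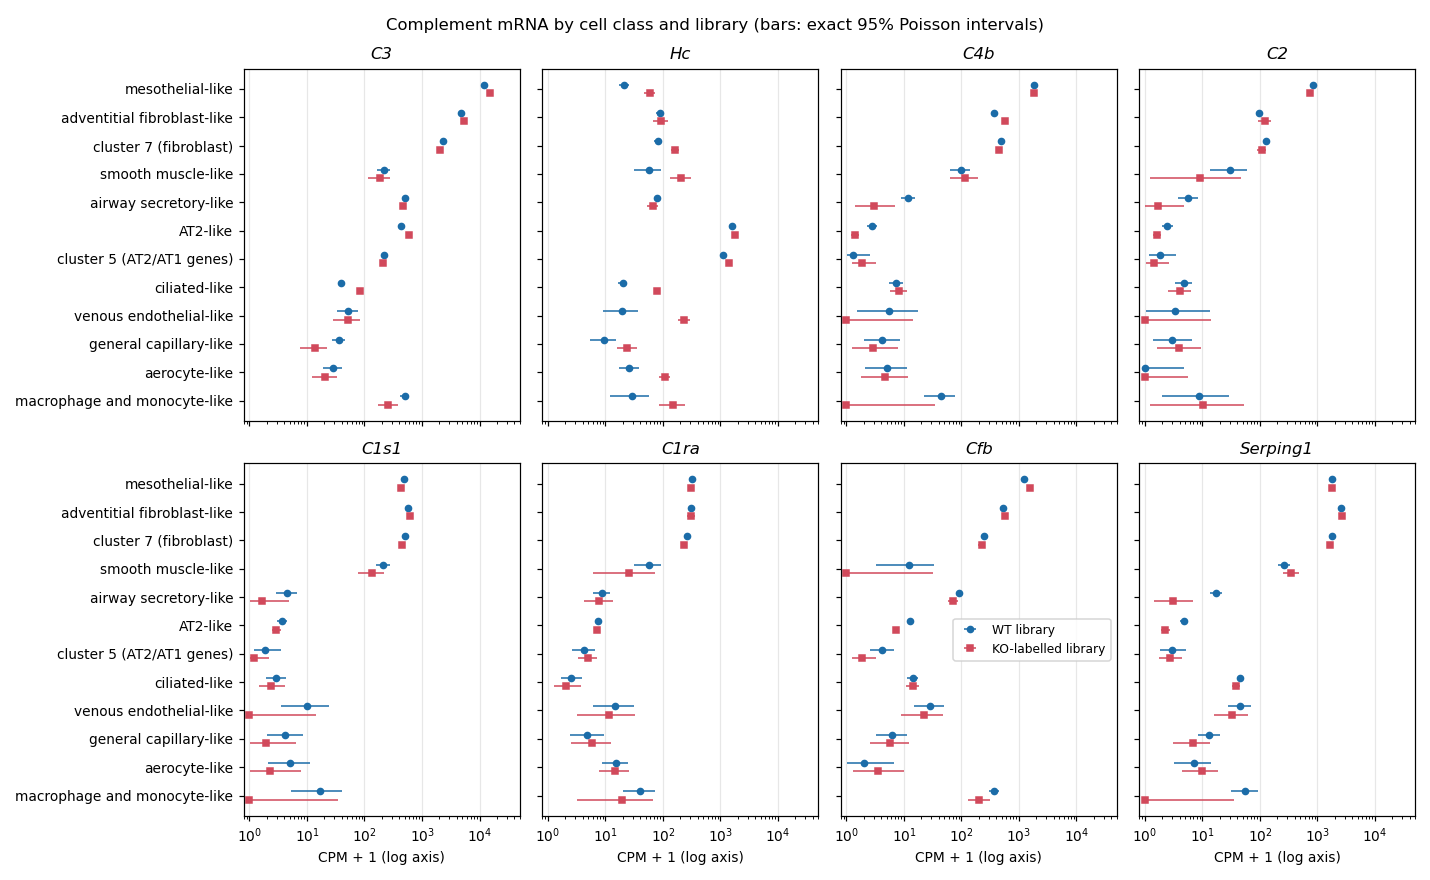
CPM + 1 on a log axis for each of the 8 genes in 12 cell classes or clusters, blue circles for the WT library and red squares for the KO-labelled library, with exact 95% Poisson intervals. All genes but Hc lie furthest right in the mesothelial-like and fibroblast rows, and Hc in the AT2-like row and cluster 5.

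The C1 proteases were transcribed at similar levels in the mesothelial-like class and in both fibroblast groups. C1s1 was at 486 and 439 CPM in mesothelial-like cells of the WT and KO-labelled library, at 571 and 611 CPM in adventitial fibroblast-like cells and at 507 and 452 CPM in cluster 7. Cluster 7 is a fibroblast group of 773 and 336 cells led by Mgp, Mfap4, Timp1 and Saa3, with markers of several fibroblast classes. C1ra followed the same order of magnitude, with 324 and 305 CPM in mesothelial-like cells, 309 and 304 CPM in adventitial fibroblast-like cells, and 257 and 235 CPM in cluster 7. The intervals of C1ra in mesothelial-like (307 to 341 CPM) and adventitial fibroblast-like cells (285 to 334 CPM) overlapped in the WT library, so their order is not resolved. Smooth muscle-like cells, 82 and 35 of them, held 210 and 132 CPM of C1s1. In the named epithelial and endothelial classes with at least 100 cells per library both proteases were at or under 14.1 CPM. A single epithelial group stood above the others: the AT2-like cluster 11, which carries interferon-induced genes, had 28.0 and 35.4 CPM of C1ra, against 1.10 to 9.45 CPM over both libraries in the remaining AT2-like clusters. C1qa, C1qb and C1qc, which encode the recognition subunit that holds the 2 proteases, were found in macrophage and monocyte-like cells, with 185 and 73.9 CPM of C1qa from 46 and 21 cells, and at or under 2.01 CPM in the 7 named classes compared.

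C4b and C2, which supply the classical convertase, were the members most concentrated in the mesothelium. C4b reached 1789.8 CPM (1750.0 to 1830.3) in mesothelial-like cells of the WT library and 1827 CPM in the KO-labelled library. It stood at 374 and 577 CPM in adventitial fibroblast-like cells, 485 and 457 CPM in cluster 7 and 95.9 and 116 CPM in smooth muscle-like cells. C2 was at 834 and 734 CPM in mesothelial-like cells, 97.0 and 120 CPM in adventitial fibroblast-like cells and 129 and 106 CPM in cluster 7. Mesothelial cells, including the mixed cluster 19 with fibroblast markers, were 10.0% of the WT cells and held 85.4% of all C2 UMIs. In the KO-labelled library they were 3.10% of the cells and held 82.4% of C2. The same share for C4b was 77.7% and 75.2%. These shares depend on which cells survived digestion and the sort.

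C3, the protein on which all routes of activation converge, was among the most abundant mRNAs of the mesothelial-like class. It ranked 3 of all genes there in the WT library and 2 in the other, with 11736 CPM (11634 to 11839) and 15164 CPM (14963 to 15367). The median mesothelial-like cell held 51 C3 UMIs in the WT library and 78 in the other, and 99.6% and 100% of the cells had at least 1. Adventitial fibroblast-like cells followed with 4669 and 5287 CPM (rank 14 and 12) and cluster 7 with 2273 and 2062 CPM. The next level down was epithelial: airway secretory-like cells had 497 and 461 CPM and AT2-like cells 435 and 593 CPM. Macrophage and monocyte-like cells had 496 and 259 CPM, from 126 and 28 UMIs. Ciliated-like cells had 38.2 and 82.7 CPM, and the 3 named endothelial classes compared lay between 12.5 and 50.6 CPM. Cluster 13, an unnamed endothelial group of 196 and 113 cells, had 38.8 and 135 CPM of C3 and 23.9 and 191 CPM of Hc. Endothelial cells with lymphatic markers, only 39 and 12 of them, had 601 and 826 CPM of C3. The 55 C3 UMIs of the KO-labelled library came from 5 cells, and Hc was at 106 and 916 CPM in the same group. The part of RNA from other cells in these values was not tested.

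Cfb, the alternative-pathway counterpart of C2 and its neighbour in the genome, was spread more widely. Mesothelial-like cells had 1226 and 1546 CPM, adventitial fibroblast-like cells 522 and 573 CPM and cluster 7 had 249 and 224 CPM. Unlike C2, Cfb was also counted in airway secretory-like cells, at 91.1 and 70.4 CPM against 4.68 and 0.683 CPM of C2. Macrophage and monocyte-like cells had 370 and 203.3 CPM of Cfb and 7.87 and 9.24 CPM of C2. Within the AT2-like class Cfb ran from 3.65 and 0.852 CPM in cluster 0 to 49.3 and 32.8 CPM in cluster 11. Factor D (Cfd), the protease that cleaves factor B, had 3 UMIs in all over the classes and clusters shown, and properdin (Cfp), which steadies the convertase, was above 50 CPM only in neutrophil-like and macrophage and monocyte-like cells.

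Hc, the gene for C5, had a different source. AT2-like cells held 1594 CPM (1577 to 1611) in the WT library and 1805 CPM (1790.5 to 1819.6) in the KO-labelled library, where Hc ranked 48 and 37 of all genes. A UMI of Hc was found in 95.9% and 97.8% of AT2-like cells, with a median of 9 and 10 UMIs per cell. Cluster 5, which shares AT2 and AT1 genes, had 1085 and 1392 CPM. Epithelial cells held 97.8% and 98.2% of all Hc UMIs. Outside the AT2-like class and cluster 5 the level of Hc followed that of the AT2 gene Sftpc. If all Sftpc in ciliated-like cells were free RNA of AT2 cells, 18.9 and 77.7 CPM of Hc would come with it, and 19.1 and 79.1 CPM were counted. In adventitial fibroblast-like cells the same bound was 78.2 and 91.0 CPM against 86.5 and 90.3 CPM counted, and in mesothelial-like cells 22.0 and 78.9 CPM against 20.05 and 58.0 CPM. The Hc counts of these classes are therefore at the level that this bound allows. For C3 the bound was 5.99 and 25.9 CPM in mesothelial-like cells and 21.3 and 29.9 CPM in adventitial fibroblast-like cells, far under the levels counted there. In the KO-labelled library it covered the C3 counts of aerocyte-like cells (41.2 CPM against 19.9 counted) and venous endothelial-like cells (63.3 against 49.7). A like bound takes all Msln as free mesothelial RNA. In the WT library it was 49.3 CPM of C3 against 34.8 counted in general capillary-like cells. It was 38.5 against 27.2 in aerocyte-like and 9.78 against 50.6 in venous endothelial-like cells. In ciliated-like cells it was 21.8 and 41.0 CPM against 38.2 and 82.7 CPM. The part of free RNA in these counts was not tested.

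**Figure D2:**
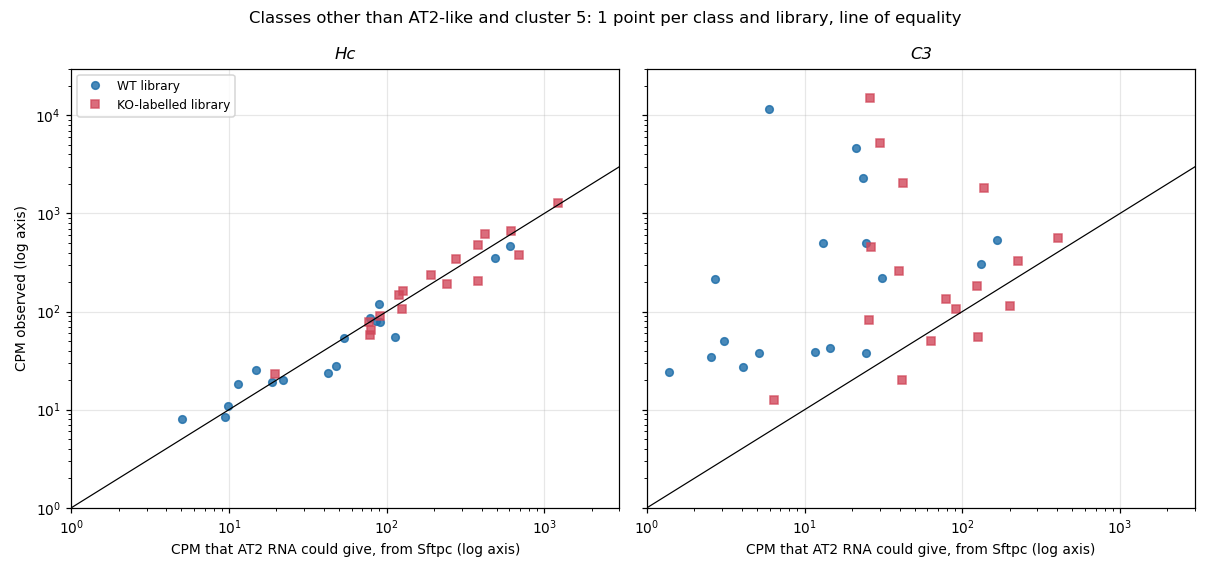
CPM counted (vertical, log axis) against the CPM that AT2 RNA could give if all Sftpc of the class were free RNA (horizontal, log axis), 1 point per class or cluster outside AT2-like cells and cluster 5, blue for the WT and red for the KO-labelled library; the line marks equality. Hc points lie along the line, and C3 points of mesothelial and fibroblast groups lie far above it.

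Serping1, the inhibitor of the C1 proteases, was higher in adventitial fibroblast-like cells than in the other named compared classes. Adventitial fibroblast-like cells had 2590.4 CPM (2520.5 to 2661.7) in the WT library and 2637 CPM in the KO-labelled library, ahead of mesothelial-like cells with 1764 and 1757 CPM and cluster 7 with 1767 and 1648 CPM. In the WT library the last 2 could not be told apart, with intervals of 1725 to 1805 CPM and 1717 to 1818 CPM. Smooth muscle-like cells had 262 and 347 CPM. If all Dcn in them were free RNA of adventitial fibroblasts, it would bring 169 and 167 CPM of Serping1, and 305 and 335 CPM of C3, above the 218 and 182 CPM of C3 counted there. Ciliated-like cells had 43.8 and 37.6 CPM, with a UMI in 20.1% and 16.4% of the cells, against 2.38% and 0.807% of AT2-like cells, whose median depth was 6417 and 6208.5 UMIs against 5958.5 and 5953 UMIs in ciliated-like cells. Serping1 counts stood above those of its target protease C1s1 in mesothelial-like, adventitial fibroblast-like, smooth muscle-like and cluster 7 cells of both libraries. In smooth muscle-like cells the Dcn bound was 64.5% and 48.1% of the Serping1 count, but 17.7% and 29.3% of the C1s1 count. Their order there without free RNA was not tested. In AT2-like cells of the KO-labelled library C1s1, at 1.94 CPM, was above Serping1, at 1.24 CPM.

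Single mesothelial-like cells carried most of the set at the same time. The median cell had UMIs of 7 of the 8 genes in each library, against 5 in adventitial fibroblast-like cells, 4 in cluster 7, 2 in AT2-like cells and 0 in general capillary-like and ciliated-like cells. Thinned to 1000 UMIs per cell, which puts classes on 1 depth and left out 5 and 4 mesothelial-like cells, the medians were 4, 3, 3 and 1 for the first 4 of these groups, and 75% and 75.2% of mesothelial-like cells still held at least 4 members. At that depth C3 was seen in 99.4% and 100% of mesothelial-like cells, 82.9% and 84.3% of adventitial fibroblast-like cells, 29.4% and 35.1% of AT2-like cells and 2.42% and 2.75% of ciliated-like cells. Before thinning, the shares in AT2-like and ciliated-like cells were 74.5% and 76.2%, and 14.9% and 10.8%. In the general capillary-like class, which is shallow with medians of 1306 and 1303.5 UMIs, 2.94% and 1.55% of thinned cells had a C3 UMI, after 224 and 144 shallower cells were left out.

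C3 and Hc, the substrates of the successive convertases, differed in their order across the AT2-like clusters, with C3 highest and Hc lowest in cluster 11. C3 was lowest in cluster 0, led by surfactant genes, with 170 and 165 CPM. It stood at 322 and 382 CPM in cluster 1, 529 and 700 CPM in cluster 2, which is led by Retnla and Slc26a4, and 900 and 1168 CPM in cluster 8, which adds Cxcl3 and Cxcl5. The highest level was in cluster 11, with 932 and 1353 CPM. Hc was highest in clusters 0 and 1, at 1779 to 1974 CPM over both libraries, and lowest in cluster 11, at 968 and 1336 CPM. After thinning, the share of cells with C3 went from 15.2% and 13.9% in cluster 0 to 57.3% and 62.7% in cluster 11, while that with Hc went from 75.8% and 78.1% to 52.1% and 62.0%. The orders were not fully opposite. Cluster 15 had C3 in 23.2% and 21.9% of thinned cells and Hc in 70.3% and 73.0%, against 73.0% and 79.5% with Hc in cluster 1. The summed level of the 19 interferon-induced genes of a fixed list was 265 and 209 CPM in cluster 0, 1251 and 1009 CPM in cluster 8 and 8136 and 8251 CPM in cluster 11. That of 16 NF-kB target and regulator genes was 977 and 848 CPM, 6009 and 5251 CPM, and 6497 and 4907 CPM in the same clusters. These levels are descriptions, since the list genes took part in forming the clusters. Cell by cell, after thinning, Hc was found in 71.8% and 76.0% of AT2-like cells with C3 and in 70.5% and 76.4% of those without. These shares pool the clusters. Within most of them Hc was more frequent in cells with C3, as in cluster 0, at 81.2% and 83.4% against 74.9% and 77.2%. The reverse held in cluster 1 of the WT library and in clusters 8 and 11 of the KO-labelled library.

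**Figure D3:**
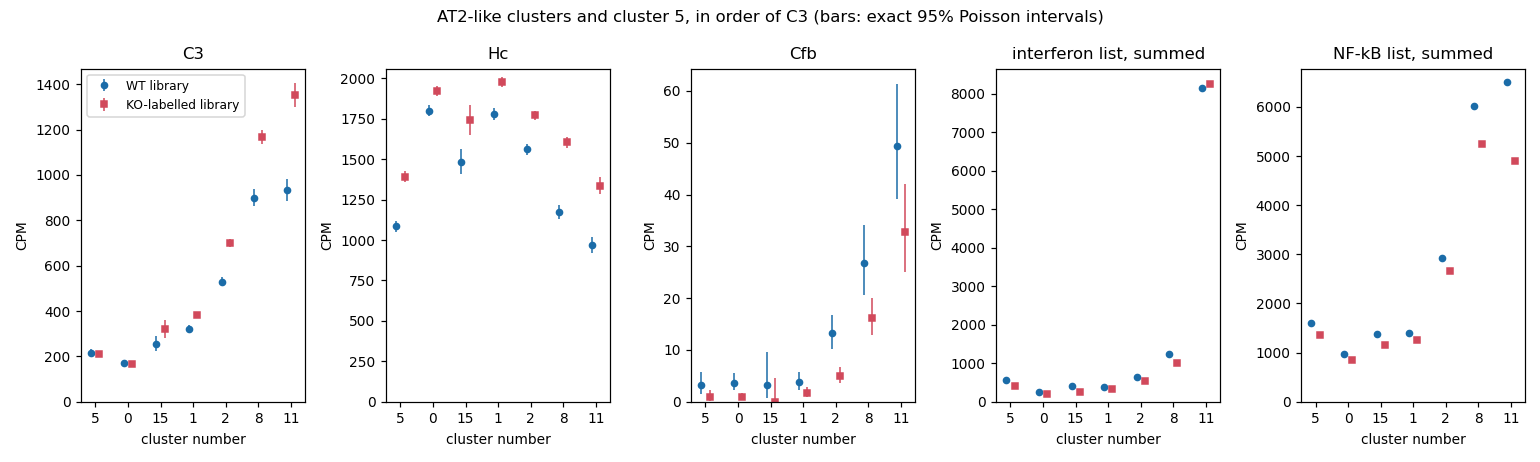
CPM of C3, Hc and Cfb with exact 95% Poisson intervals, and summed CPM of the interferon and NF-kB lists, in the 6 AT2-like clusters and cluster 5, blue circles for the WT and red squares for the KO-labelled library. C3 and Cfb are highest and Hc is low in clusters 8 and 11, where the summed lists are highest. Hc is also low in cluster 5 (1085 and 1392 CPM), where C3 (215 and 211 CPM) and the interferon (564 and 398 CPM) and NF-kB (1593 and 1354 CPM) sums are low.

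The DNA just upstream of both genes is shown because C3 and Hc had different orders across the AT2-like clusters. RefSeq promoter entries on GRCm38.p6 were found for 4 of the 8 members: C3, Hc, C1ra and C1s1. The 250 bases before the RefSeq start are printed 5′ to 3′ on the gene's strand, chr17:57228137-57228386 (minus strand) for C3 and chr2:35061413-35061662 (minus strand) for Hc, with motif matches in capitals.
C3: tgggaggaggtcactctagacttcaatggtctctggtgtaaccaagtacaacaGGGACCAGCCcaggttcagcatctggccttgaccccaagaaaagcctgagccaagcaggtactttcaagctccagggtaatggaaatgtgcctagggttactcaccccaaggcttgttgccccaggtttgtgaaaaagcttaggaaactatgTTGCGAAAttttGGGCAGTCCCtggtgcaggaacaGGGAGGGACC
Hc: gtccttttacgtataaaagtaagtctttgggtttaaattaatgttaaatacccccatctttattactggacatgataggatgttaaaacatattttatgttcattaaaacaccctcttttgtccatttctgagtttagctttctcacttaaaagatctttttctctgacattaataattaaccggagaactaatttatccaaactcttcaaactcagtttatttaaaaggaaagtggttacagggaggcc
Capitals mark matches, on either strand and without overlap, to GGGA and CC with any 4 bases between them, the NF-kB type (3 in C3), and to TTGCNNAA, the C/EBP type (1 in C3). The C/EBP-type match starts 45 bases before the C3 start site, and the nearest NF-kB-type match ends at the base before it. Of 32851 promoter entries, searched over the same 250 bases before the start, 17.6% held at least 1 match to the NF-kB type and 9.56% to the C/EBP type. The types TTCNNNGAA (STAT factors, 7.02% of entries), GAAA repeated after any 2 bases (interferon-stimulated response element, 2.98%), TGANTCA (AP-1, 6.75%), TGTTTAC (FOX, 3.17%) and CAAGTG (NKX2-1, 11.6%) were not found in either window, and the Hc window held none of the 7. The motif pair is not particular to C3. The windows of C1s1, not printed, held an NF-kB-type and a C/EBP-type match, at different start sites. C1s1 was at only 2.67 and 1.94 CPM in AT2-like cells. A link between matches and cluster order was not tested. A match describes letters and is not a measured site.

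Between the libraries, the members passed 1.5-fold in a minority of the pairs with enough UMIs, but more often than all genes did. The pairs include classes in which a member is scarce, such as C4b in AT2-like cells. Of 56 pairs of a member and a named compared class, 39 had at least 20 UMIs over both libraries, and 26 of these differed by less than 1.5-fold. 7 pairs were at least 1.5-fold higher in the KO-labelled library, against 6.0% of all gene and class pairs with that many UMIs, and 6 were at least 1.5-fold lower, against 11.2%. Of the 7 higher pairs, 5 were Hc outside AT2-like cells, in mesothelial-like, ciliated-like, general capillary-like, aerocyte-like and venous endothelial-like cells. That much higher were 5.96% of all genes in mesothelial-like, 6.07% in general capillary-like, 7.52% in aerocyte-like and 9.57% in venous endothelial-like cells. Sftpc also had more counts in these classes on the KO-labelled side, with log2 ratios of 0.96 in general capillary-like to 4.00 in venous endothelial-like cells. After subtraction of the Sftpc bound 2 higher pairs were left. The 5 Hc pairs then had under 20 UMIs and could no longer be counted, so their ratios were not recomputed. With the doublet calls kept in, 2 pairs were higher.

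**Figure D4:**
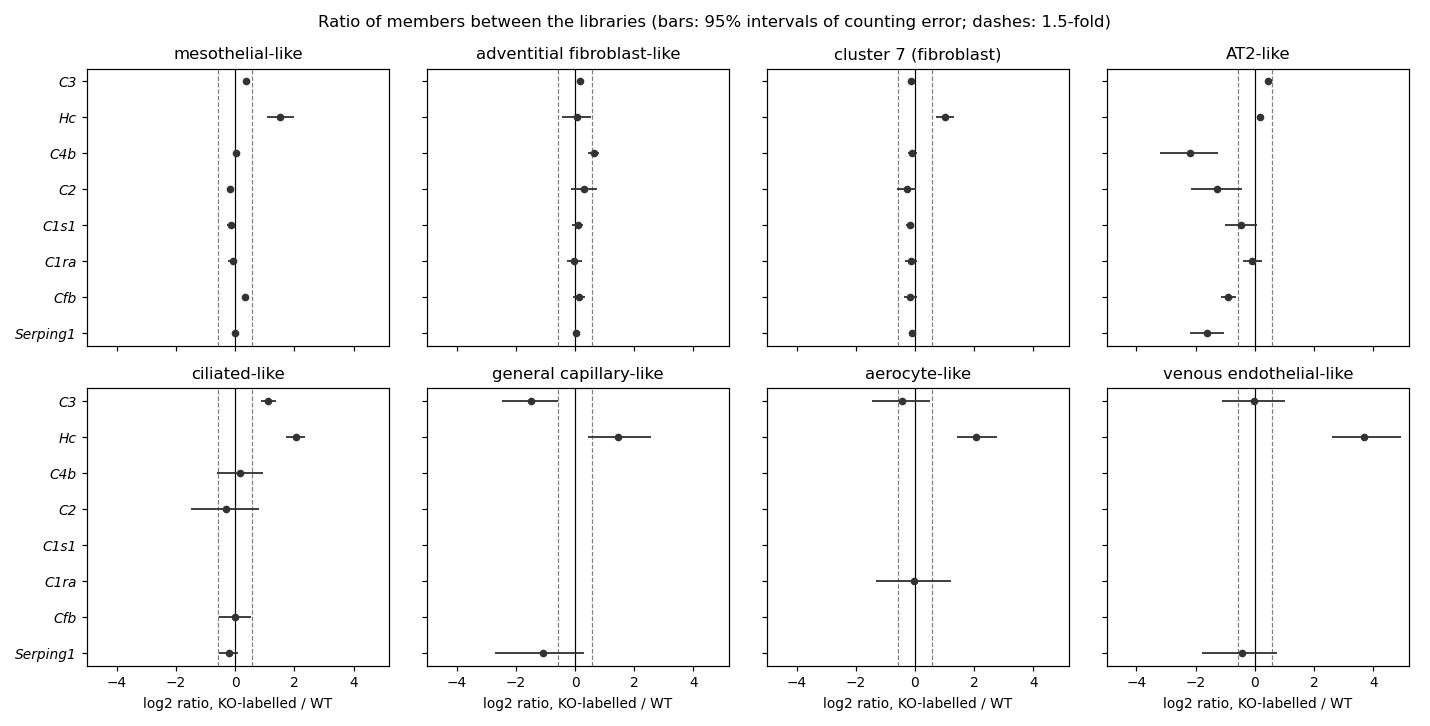
Log2 ratio of CPM, KO-labelled over WT, for each gene in 8 classes or clusters, with 95% intervals of counting error; dashed lines mark 1.5-fold, and pairs under 20 UMIs are not drawn. In the mesothelial-like, adventitial fibroblast-like and cluster 7 panels all genes but Hc and C4b lie between the dashed lines.

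In mesothelial-like cells C3 and Cfb were both somewhat higher in the KO-labelled library. The log2 ratio was 0.37 (0.35 to 0.39) for C3 and 0.33 (0.26 to 0.41) for Cfb, both under 1.5-fold, and over the alternative settings they ran from 0.28 to 0.45 and from 0.21 to 0.43. C2 and C1s1 were lower, by log2 ratios of -0.19 (-0.29 to -0.09) and -0.15 (-0.28 to -0.02), and the intervals of C4b, C1ra and Serping1 held 0. The median log2 ratio of all 10768 genes in the class was -0.08. Only Hc, at 20.05 and 58.0 CPM, passed 1.5-fold, as did 5.96% of all genes upward. Of all genes 15.7% were at least that much lower, and no member was.

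In adventitial fibroblast-like cells C4b was the only member past 1.5-fold, with 374 CPM in the WT library, 577 CPM in the KO-labelled library and a log2 ratio of 0.63 (0.43 to 0.82). Of all genes of the class, 10.1% were at least that much higher. A C4b UMI was found in 48.3% of the WT cells and 60.3% of the KO-labelled cells. C3 had a log2 ratio of 0.18 (0.12 to 0.24), and the intervals of the other 6 held 0. When each library was clustered apart, this class gave 0.40 for C4b, -0.61 for C3 and -0.66 for Cfb, but it then held 461 and 459 cells in place of 458 and 116. The values compare different cells, and the last 2 ratios depend on which cells the class takes in. In the same cells 13 of 18 interferon-list genes were at least 1.5-fold lower in the KO-labelled library, with a median log2 ratio of -0.86, while 14.3% of all genes were that much lower. The part of that difference in the complement values was not tested. In cluster 7 all members but Hc were within 1.5-fold, at log2 ratios of -0.28 to -0.08, and Hc was at 80.3 and 163 CPM, higher with 7.47% of all genes. No member was at least 1.5-fold lower there, against 9.56% of all genes.

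In AT2-like cells C3 was higher in the KO-labelled library, with a log2 ratio of 0.45 (0.41 to 0.48), and Hc with 0.18 (0.16 to 0.20), while the median of all genes was -0.10. The 6 clusters were filled unequally: cluster 8 had 320 WT and 671 KO-labelled cells, cluster 2 had 690 and 1276, and cluster 0 had 1013 and 1475. Within clusters the C3 ratio was -0.05 (-0.17 to 0.07) in cluster 0, 0.25 in cluster 1, 0.40 in cluster 2, 0.38 in cluster 8 and 0.54 (0.45 to 0.63) in cluster 11. Clustered apart, the class gave a C3 ratio of -0.04, with 3459 WT and 3067 KO-labelled cells in place of 3277 and 5082, so it was not the same set of cells. Hc kept a ratio above 0 in each of the 6 clusters, from 0.10 in cluster 0 to 0.46 in cluster 11, and ran from 0.13 to 0.30 over the alternatives.

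4 members were at least 1.5-fold lower in AT2-like cells of the KO-labelled library, as were 8.45% of all genes, but all were scarce there. C4b was at 1.79 and 0.394 CPM, C2 at 1.47 and 0.606 CPM, Serping1 at 3.77 and 1.24 CPM and Cfb at 11.9 and 6.39 CPM. Msln, the mesothelial marker, was at 7.44 and 0.575 CPM in the same cells, and Dcn, the fibroblast marker, at 5.19 and 0.757 CPM. If all that Msln were free mesothelial RNA, it would bring 4.83 CPM of C4b, 2.25 CPM of C2 and 4.76 CPM of Serping1 in the WT library, each above the level counted, and 3.31 CPM of Cfb, under the level counted. In the KO-labelled library the bound was 0.369 CPM of C4b, 0.148 CPM of C2, 0.355 CPM of Serping1 and 0.313 CPM of Cfb, each under the level counted. Cfb was lower in each of the 5 AT2-like clusters with at least 20 UMIs, with log2 ratios of -2.10 (-3.57 to -0.82) in cluster 0 to -0.59 (-1.09 to -0.09) in cluster 11. With cells thinned to 1000 UMIs its class ratio was -0.53.

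Over all kept cells a level also depends on the mix of cells. C3 was at 1641 CPM in the WT library and 998 CPM in the KO-labelled library, lower in the latter. Within classes it had a log2 ratio above 0 in mesothelial-like, adventitial fibroblast-like and AT2-like cells, of which the last 2 depend on the clustering, and of -0.14 (-0.21 to -0.07) in cluster 7. Mesothelial-like cells were 8.93% (8.38 to 9.50) of the WT cells and 2.93% (2.59 to 3.30) of the KO-labelled cells, and AT2-like cells 32.0% and 56.9%. Mesothelial cells thus held 65.4% of the C3 UMIs in the WT library and 45.3% in the other, and epithelial cells 15.003% and 43.7%. Hc went the other way, at 786 and 1368 CPM. Serping1 was at 374 and 122 CPM, C4b at 200 and 71.3 CPM and Cfb at 159 and 65.0 CPM.

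C3 in ciliated-like cells had a log2 ratio of 1.11 (0.86 to 1.37), with 224 UMIs in the WT and 301 in the KO-labelled library, where a single cell held 100. This and Hc made 2 of the 6 members measured there higher, against 4.33% of all genes, and 0 were lower by 1.5-fold, against 7.58%. In aerocyte-like cells 0 of 3 were that much lower, against 9.74%. A C3 UMI was found in 14.9% of the WT and 10.8% of the KO-labelled ciliated-like cells, so the share of cells went against the summed level. In general capillary-like cells C3 had 54 and 13 UMIs and a log2 ratio of -1.47 (-2.47 to -0.58). That ratio became 0.67 at a coarser clustering and 0.82 under a stricter cell filter, so no direction is drawn from it. Serping1, with 19 and 6 UMIs, had an interval that held 0, and 9.16% of all genes were at least 1.5-fold lower there. In airway secretory-like cells, with 98 in the KO-labelled library, 3 of 7 members (C4b, C2 and Serping1) were at least 1.5-fold lower, as were 26.9% of all genes, and 0 higher, against 2.70%. Their lower values rest on 1 to 3 UMIs each. There C3 and Cfb had log2 ratios of -0.11 (-0.24 to 0.02) and -0.37 (-0.70 to -0.05), against a median of -0.30 for all genes.

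Other complement genes of a fixed list of 53 showed where the neighbouring steps of the cascade were transcribed. Of the terminal components, C6 was an AT2 gene like Hc, at 156 and 141 CPM, and C7 a fibroblast gene, at 1061 and 1035.5 CPM in cluster 7 and 311 and 426 CPM in adventitial fibroblast-like cells. C8a had no UMI in the classes and clusters shown and C9 had 3. Among soluble regulators, clusterin (Clu), which binds the terminal complex, was at 1362 and 1357 CPM in mesothelial-like and 734 and 821 CPM in aerocyte-like cells. The membrane regulator Cd55, which speeds the decay of convertases, was highest in ciliated-like cells at 515 and 438 CPM. The receptor for C5a, C5ar1, was at 825 and 460 CPM in neutrophil-like cells, 145 and 25 of them, and Cd93 at 1552 and 1701 CPM in general capillary-like cells.

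**Figure D5:**
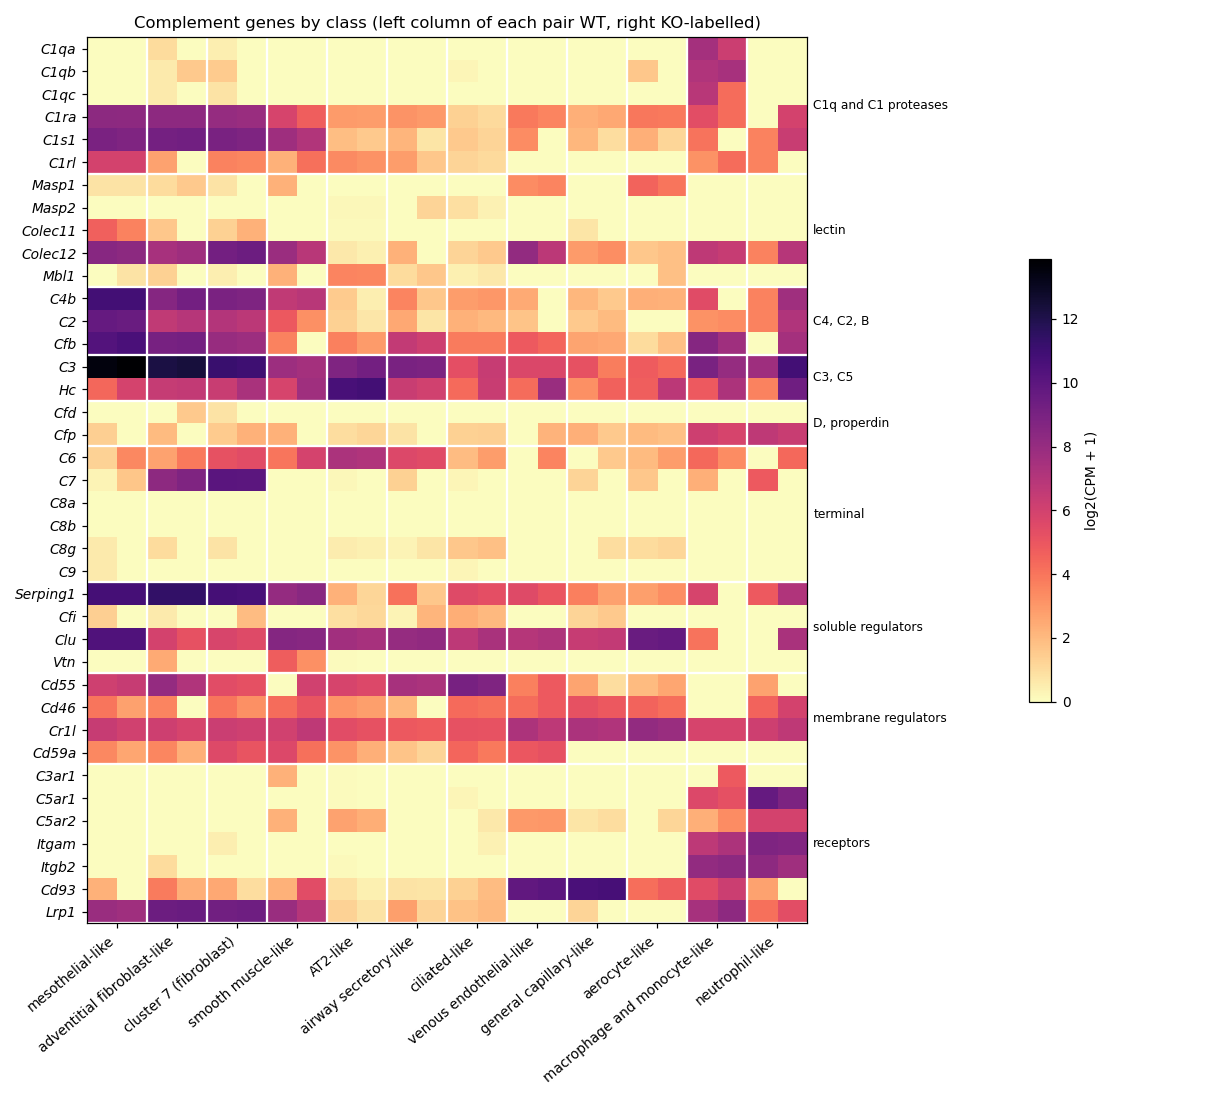
Log2(CPM + 1) of complement genes, grouped by role, in 12 classes or clusters, with the WT library in the left and the KO-labelled library in the right column of each pair. C1ra, C1s1, C4b, C2, Cfb, C3 and Serping1 are dark in the 3 leftmost groups, Hc and C6 in AT2-like cells, C1qa, C1qb and C1qc in macrophage and monocyte-like cells, and C8a, C8b and C9 are near 0 in all.

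The rest of the list was compared between the libraries in the same way. In mesothelial-like cells 3 of 16 such genes with 20 UMIs were at least 1.5-fold higher and 5 lower, with a median log2 ratio of -0.18 against -0.08 for all genes, of which 5.96% were higher and 15.7% lower. In adventitial fibroblast-like cells 0 of 12 were higher, against 10.1% of all genes, and 5 lower, against 14.3%, among them Cd55 at 264 and 137 CPM with a log2 ratio of -0.94 (-1.32 to -0.58). In AT2-like cells 2 of 21 were higher, against 2.34% of all genes, and 6 lower, against 8.45%. In venous endothelial-like cells 2 of 7 were lower, with 16.9% of all genes, among them the scavenger receptor Colec12, at 276 and 107 CPM with a log2 ratio of -1.37 (-2.00 to -0.79).

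The genes whose level was most like each member were taken over the 7 named compared classes in 2 libraries, as Pearson's r of log2(CPM + 10) across these 14 points and 6823 genes. The points share libraries and depth, so r is a description. Hc was closest to the AT2 genes Sftpb (0.99), Slc34a2 and Napsa. C4b and C2 shared Sema3d and Aldh1a2, a retinoic acid enzyme, among their nearest 3 genes, all at r of 0.99. C1s1 and C1ra shared Rcn3, at r of 0.998 and 0.990, followed for C1s1 by the matrix proteoglycans Prelp and Ogn. C3 was closest to Creb3l1 (0.98), Col6a1 and Rnf19b, Cfb to C1qtnf1, Flrt2 and Pamr1, and Serping1 to Plxdc2 and Sfrp1. Among the members, r ran from 0.85 (C3 with Serping1) to 0.99 without Hc, and between -0.24 and 0.18 for pairs with Hc.

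4 of the members lie on chromosome 17 in the GENCODE M21 annotation of GRCm38. C4b spans 34728380 to 34743882, Cfb 34856374 to 34862518 and C2 34862604 to 34898265, with 85 bases between the last 2, and C3 lies apart at 57203970 to 57228136. C1ra (124512405 to 124523443) and C1s1 (124530345 to 124542359) are neighbours on chromosome 6, and Hc (34983331 to 35061438) and Serping1 (84765387 to 84775444) are on chromosome 2. 3 members have near copies that could share reads. C4a had 41 UMIs against 13627 of C4b, C1rb 16 against 4251 of C1ra, and C1s2 27 against 6620 of C1s1. The last 500 transcript bases of C4b and C4a were identical at 489 of 499 aligned positions. For C1s1 and C1s2 it was 427 of 441 positions. C1ra and C1rb aligned over only 182 positions, 179 of them identical, so most of these 2 ends could not be compared. Reads that match both copies may have been moved between them or lost, which a sum of the copies would not restore. How such reads were counted was not tested. The annotated gene Gm20547 overlaps 6107 bases of Cfb and was not in the gene list of the files.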

How the data were processed

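The deposited files hold raw UMI counts per gene and cell barcode, 1 matrix per library; per the file headers the authors made them with Cell Ranger 7.0.0, and per the submitters' processing notes with Cell Ranger 7.0.0 and 7.1.0 on mm10. Whether intronic reads were counted and how cell barcodes were called is not given in the sources used here. The members, gene lists and comparisons were chosen with earlier results of these data known.

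Barcodes under 500 genes or above 15% mitochondrial UMIs were dropped, and doublets called by Scrublet (expected rate 8%) were removed in each library: 617 (5.69%) of the WT and 175 (1.92%) of the KO-labelled barcodes. Scanpy 1.11.5 and leidenalg 0.10.2 clustered both libraries together (2000 variable genes, 30 components, 15 neighbours, Leiden resolution 1) into 27 clusters, without complement genes, Plaur, haemoglobin genes, sex-linked genes and mitochondrial or ribosomal genes. The rule that leaves a cluster unnamed when another class has as many of its markers was put in its final form after the clusters were seen. 30 barcodes occur in both libraries before filtering.

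Summed counts per class gave CPM with exact Poisson intervals, shares of cells with Clopper-Pearson intervals and library ratios with conditional binomial intervals (scipy 1.17.1), all at 95%. A ratio was given for at least 20 UMIs over both libraries, and a gene counted as higher or lower past 1.5-fold, with no test. A floor of 3 UMIs replaced a library at 0. PCR and droplet losses are outside these intervals. Named genes were all 8 members, pathway genes with at least 50 CPM in a class or 100 UMIs, near copies, and the 3 genes nearest each member in pattern, of which some are not reported here; C1q, Cfd, C8a and C9 were named after their values were seen. The free-RNA bound multiplies the ratio of a gene to Sftpc in AT2-like cells (or to Msln in mesothelial-like cells, chosen after the data were seen, or to Dcn in adventitial fibroblast-like cells) by that marker's level in another class. The scripts were tested on simulated counts. Alternatives covered clustering, doublets, cell filters, UMI minimum, scaling (edgeR TMM) and thinning.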

Additional observations from a re-analysis of the deposited data

Results flagged for a closer look

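4 ratios stood out because the same gene lay on opposite sides of 0 in different classes, each with an interval clear of 0. C3 had a log2 ratio (KO-labelled over WT) of 1.11 in ciliated-like cells and -1.47 in general capillary-like cells. C4b had 0.63 in adventitial fibroblast-like cells and -2.19 in AT2-like cells. With 1 library per genotype neither difference between classes was tested. The C3 ratios rest on 54 and 13 UMIs in the capillary class and, in ciliated-like cells of the KO-labelled library, on a cell with 100 of 301 UMIs, and both changed sign under other settings. In the capillary class the Msln bound for C3 was 49.3 CPM against 34.8 counted in the WT library. In the KO-labelled library it was 5.14 against 12.5 CPM. C4b in AT2-like cells rests on 39 and 13 UMIs.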

How the results depend on the processing

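With the doublet calls kept, the number of pairs at least 1.5-fold higher in the KO-labelled library was 2 in place of 7, and it was also 2 after subtraction of the Sftpc bound, an alternative chosen after seeing the data. After that subtraction fewer pairs could be counted, as the higher Hc pairs fell under 20 UMIs. The number at least 1.5-fold lower was 10 in place of 6 with means over cells of per-cell CPM and 2 with a minimum of 100 UMIs, where fewer pairs could be counted. In the other settings run, 5 to 10 pairs were higher and 4 to 9 lower. 7 members had their highest class among mesothelial or fibroblast cells in each of the settings in which that was recomputed. C3 in general capillary-like cells changed sign at Leiden resolution 0.5 (0.67), with doublets kept (0.37), under the stricter cell filter (0.82) and with the libraries clustered apart (0.056). With doublets kept, C3 in ciliated-like cells was at -0.29 and Hc in aerocyte-like cells at -0.20, and no class was named venous endothelial-like. That class was also absent under the stricter cell filter. With the libraries clustered apart it had 194 WT and 0 KO-labelled cells. The cause of these changes was not tested. Of 595 ratios recomputed, 52 had another sign than the value reported, 6 of them from a value past 1.5-fold, which are those above. TMM factors moved AT2-like ratios by 0.12 on the log2 scale. No paired analysis was possible because each genotype has 1 library, and for the same reason no library could be left out. Depth limits the endothelial classes most.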

Other observations

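Further groups with fewer than 100 cells in a library also held C3. Cluster 18, 69 and 96 cells with endothelial markers, had 540 and 560 CPM of C3, with Sftpc at 59572 and 113317 CPM. Cluster 23, 66 and 24 cells led by Ccl4, Ccl3 and Gzmb, had 307 and 331 CPM of C3, with Sftpc at 47601 and 63392 CPM. Cluster 19, 111 and 15 cells that carry both mesothelial and fibroblast markers, had 6359 CPM of C3 in the WT library and 9308 CPM in the KO-labelled library, in both libraries between the mesothelial-like and the adventitial fibroblast-like level. Neutrophil-like cells had 214 and 1839 CPM of C3 from 145 and 25 cells, with a UMI in 17.2% and 24.0% of the cells. In the same cells Msln was at 5.50 and 580 CPM and Sftpc at 968 and 38732 CPM, and all 29 Msln UMIs of the KO-labelled library were in 1 of the 25 cells. The part of such RNA in the C3 values of these groups was not tested.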
